A study of Mus musculus with 9 samples.

Results

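The genes described here are 8 glutathione S-transferases (GSTs) and gamma-glutamyltransferase 1 in the kidney cells of 9 male C57BL/6 mice. They were chosen by name: Gsta2, Gsta3 and Gsta4 of the alpha class, Gstm1 and Gstm5 of the mu class, Gstp1 of the pi class, Gstt1 and Gstt2 of the theta class, and Ggt1. All 9 were present in each of the 9 matrices, among 32427 gene symbols in all. Mice were obtained at 6 weeks of age and kept for 1 week before treatment. The 3 Control mice received saline. The 3 AKI-CKD mice received 4 weekly intraperitoneal injections of cisplatin at 8 mg/kg, a dosing scheme that takes acute kidney injury (AKI) on to chronic kidney disease (CKD). The 3 AKI-CKD + EGT mice received the same cisplatin and, from 3 days before it, the dietary antioxidant ergothioneine (EGT) at 0.5 mg/mL in drinking water. Kidneys were taken at 8 weeks and dissociated for droplet-based scRNA-seq, in which a unique molecular identifier (UMI) marks each captured polyadenylated transcript.

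GSTs join the sulfur of glutathione to reactive compounds, cisplatin and lipid aldehydes among them, and the conjugates leave the cell. Gamma-glutamyltransferase sits on the brush border of the proximal tubule (PT) and removes the glutamyl group of glutathione and its conjugates, after which dipeptidases and acylases finish the route to mercapturates or cysteine. The kidney proximal tubule is known for this route, which both clears toxic compounds and can turn cisplatin conjugates into reactive thiols. Several GST and glutathione genes are also known targets of NRF2, a transcription factor that binds antioxidant response elements with the core TGACNNNGC.

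Promoters of 7 of the 9 members were in the RefSeq table of build GRCm38.p6, and the 250 bases before each of their 11 listed starts were searched for TGACNNNGC on both strands. The core was present in 4 of these promoters, namely those of Gsta3 and Gstm5 and a pair of those of Ggt1, and in 10.2% of all 32851 promoters of this length. The sequences of Gsta3 and Gstm5 are shown because they are the members with a single listed start that hold the core. That of Gclm, the modifier subunit of the enzyme that starts glutathione synthesis, is shown because its pattern over cell classes was nearest to that of Gstm5. Capitals mark the core, on the given strand for Gsta3 and Gstm5 and on the opposite strand for Gclm. Gsta3 lies at chr1:21240335-21240584, Gstm5 at chr3:107895604-107895853 and Gclm at chr3:122245307-122245556, all on the plus strand.
Gsta3: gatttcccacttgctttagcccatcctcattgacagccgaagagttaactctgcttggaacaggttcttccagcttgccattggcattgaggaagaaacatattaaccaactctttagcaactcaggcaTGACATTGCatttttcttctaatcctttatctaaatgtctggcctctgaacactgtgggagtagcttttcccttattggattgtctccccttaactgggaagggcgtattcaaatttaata
Gstm5: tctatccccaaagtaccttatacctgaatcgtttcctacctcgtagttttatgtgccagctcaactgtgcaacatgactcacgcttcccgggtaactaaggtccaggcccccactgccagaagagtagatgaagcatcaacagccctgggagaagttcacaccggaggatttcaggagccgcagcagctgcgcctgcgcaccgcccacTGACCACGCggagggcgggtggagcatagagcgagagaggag
Gclm: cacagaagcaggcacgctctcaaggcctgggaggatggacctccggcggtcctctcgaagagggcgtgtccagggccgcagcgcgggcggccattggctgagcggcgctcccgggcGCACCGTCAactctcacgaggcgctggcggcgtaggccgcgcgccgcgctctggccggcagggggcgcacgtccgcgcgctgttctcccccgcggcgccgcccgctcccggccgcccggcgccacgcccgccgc
The core began 121 bases before the start in Gsta3, 42 in Gstm5 and 134 in Gclm. Several members lie beside close relatives in this annotation: Gstp1 beside Gstp2, Gstm1 between Gstm2 and Gstm4, Gstm5 beside Gstm7, Gsta4 beside Gsta1, Gstt1 and Gstt2 on either side of Gstt4, and Ggt1 beside Ggt5. How reads shared by such copies were counted is not given in the sources used here, so members of these clusters could have exchanged reads.

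The 9 libraries held 70106161 to 101525691 UMIs. Of 216680 barcodes, 196925 cells passed the limits (1000 UMIs and 500 genes as minimums, 15% mitochondrial UMIs as a maximum), with a median of 2714 UMIs and 1147 genes. AKI-CKD + EGT mouse 3 and Control mouse 1 stood apart, since the mitochondrial limit removed 27.7% and 17.0% of their cells against 0.909% to 7.94% in the other 7. Cells were clustered without the members among the variable genes and named from marker genes into 14 classes, while 9982 cells (5.07%) stayed unnamed. PT was the largest class with 152705 cells, 8715 to 21814 per mouse. The loop of Henle (LOH) gave 8052 cells, the distal convoluted tubule (DCT) 8286, the connecting tubule (CNT) 5009, and the principal (CD-PC) and intercalated (CD-IC) cells of the collecting duct 2579 and 1734. A total of 62337 barcode names occurred in more than 1 library, as running numbers do, and 0 cells had identical counts. PT transcripts were found in all classes. The level of each of 12 PT markers was set against that in PT, and the median ratio over markers was taken in each mouse. As a median over mice, it was 0.31 (CD-IC) to 0.74 (cycling cells) in other classes. A member is therefore described as present in a class only where its ratio to PT exceeded that of these markers.

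Of the members' UMIs, 56.5% (Gsta4), 78.0% (Gstt1) and 82.0% to 88.2% (the other 7) came from PT cells. PT held 77.5% of all kept cells, with a median of 2885 UMIs per cell against 2714 over all cells. These shares alone therefore do not show a higher level in PT. Gsta2, Gstt2 and Ggt1 had their highest mean level in PT, whereas Gsta4 and Gstt1 were higher in the distal nephron and Gstm1 in the thin limb cells. Levels between classes are given as CPM, the share of a gene in the summed UMIs of a class in a mouse scaled to a fixed total, and each is compared with the same gene in PT. The class levels of the members in each mouse are plotted side by side for the 14 classes.

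**Figure D1:**
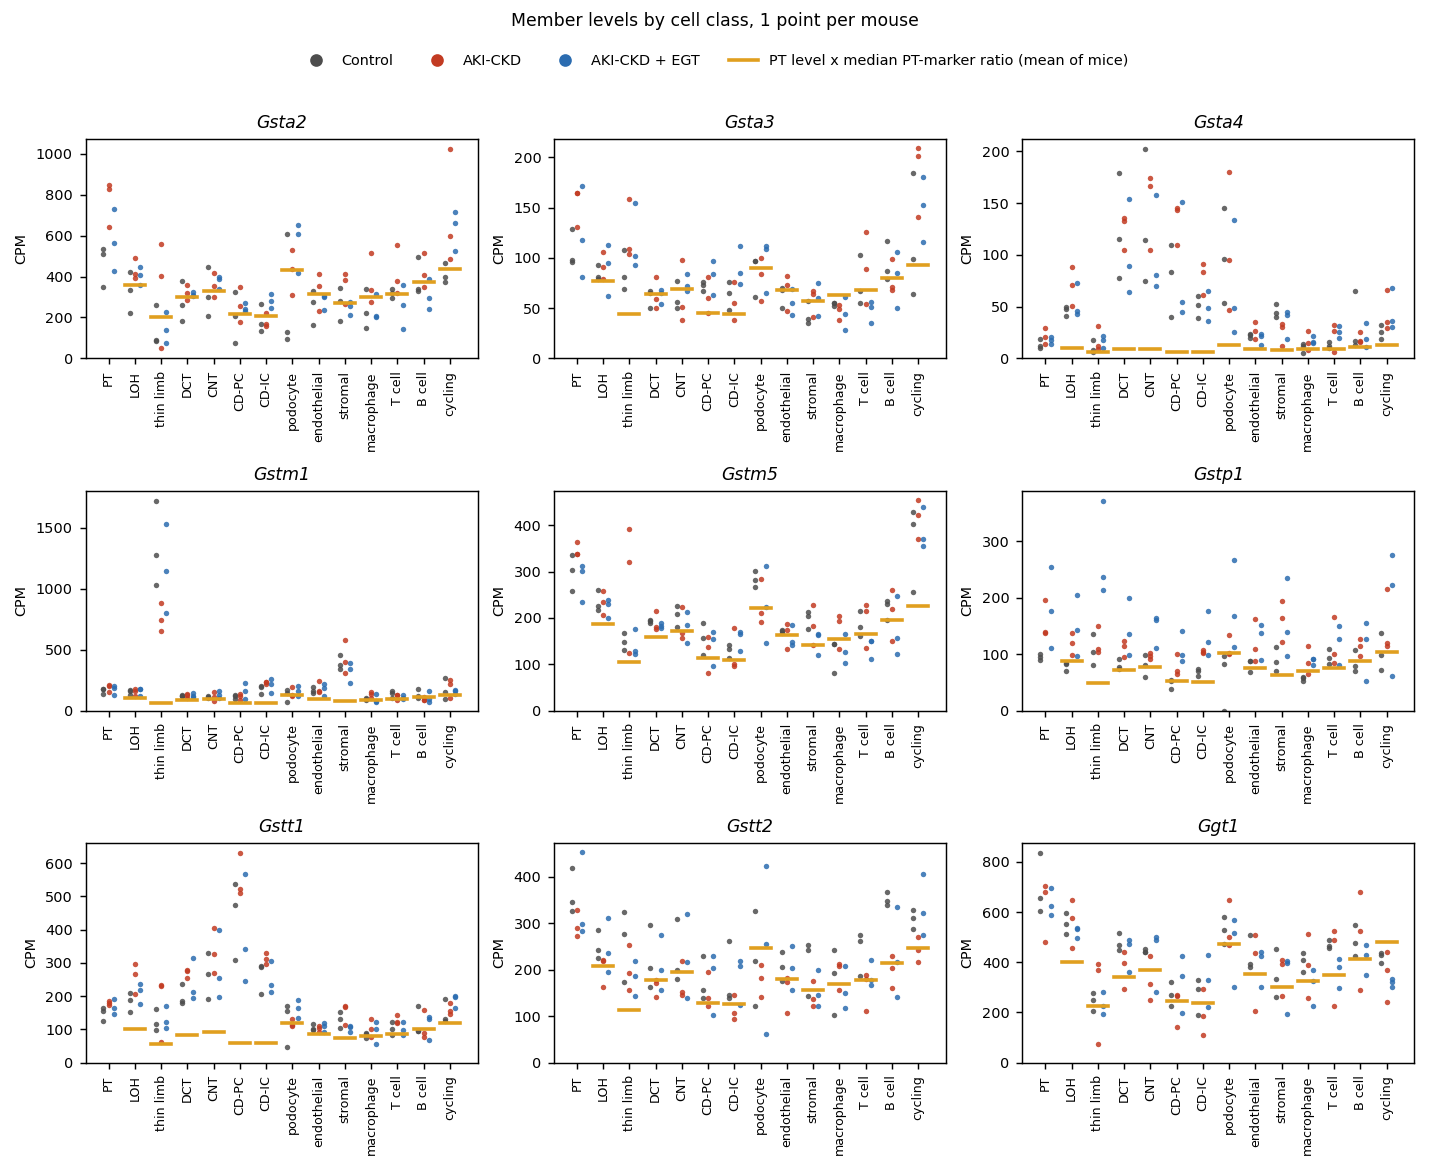
Level of each member (vertical axis, CPM, from 0) in 14 cell classes (horizontal axis), with 1 point per mouse coloured by group. The line in each class other than PT is the PT level times the median PT marker ratio, as a mean over mice. Gsta2, Gstt2 and Ggt1 had their highest mean in PT, Gsta4 in CNT, Gstt1 in CD-PC, and Gstm1 in thin limb cells at 1086 CPM.

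Gsta4 detoxifies hydroxynonenal, an aldehyde of lipid peroxidation. Its PT level ranged from 10.1 to 29.7 CPM over the 9 mice with a median of 17.8, and its DCT level from 63.9 to 179 CPM with a median of 115. The lowest DCT value was above the highest PT value. Mean levels were 127 ± 49.1 CPM in CNT, 117 ± 37.2 in DCT, 98.0 ± 44.2 in CD-PC, 91.6 ± 52.5 in podocytes, 59.8 ± 18.8 in CD-IC and 56.6 ± 16.6 in LOH (SD, n = 9). Neighbours in this order overlapped within their SD. The podocytes numbered 630, with 17 in the lowest mouse, and their pooled level was 57.8 CPM against 58.5 in CD-IC, so their place depends on weighting mice equally. In each of these 6 classes the ratio of Gsta4 to its PT level was above that of all 12 PT markers in 9 of 9 mice. Once each cell was thinned to 1000 UMIs, 10.9% ± 3.53 of DCT cells and 1.82% ± 0.561 of PT cells held a Gsta4 UMI, against 24.7% and 5.48% unthinned. T cells gave a thinned share of 1.57% ± 0.798, and the share over PT as a whole was within the spread of that in T cells. The median cell had 2234 UMIs in DCT, 2885 in PT and 2339 in T cells.

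Gstm1, a mu class enzyme with a broad range of substrates, was highest among the named classes in thin limb cells, which numbered 412 in all. Its level there was 654 to 1718 CPM with a median of 1031, against 130 to 209 CPM with a median of 178 in PT. The ratio was 6.26 as a median over mice (3.13 to 9.92). Stromal cells followed at 380 ± 97.3 CPM, and CD-IC cells at 204 ± 41.3 (SD, n = 9). The stromal class joined a cluster of 593 cells, with Gstm1 at a pooled 193 CPM next to 191 in CD-IC, and one of 112 cells at 1268 CPM, which was split from the same cluster as the thin limb cells. The place of the stromal class therefore rested on the 112 cells. The next places (CD-IC, endothelial and PT) overlapped. After thinning, 57.0% ± 9.71 of thin limb cells, 15.1% ± 2.15 of PT cells and 8.81% ± 2.28 of T cells had a Gstm1 UMI, against 81.7%, 39.3% and 22.9% unthinned. An unnamed cluster of 175 cells, split from the same cluster as the thin limb cells, held Gstm1 at a pooled 1039 CPM. Pooled levels in the clusters split from that one ran from 378 CPM (an unnamed cluster of 105 cells) to 1578 (a thin limb cluster of 124). No other cluster was above 236 CPM. The high level therefore belonged to the parent cluster as a whole and was not particular to thin limb cells.

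Gstt1, a theta class enzyme that acts on small halogenated compounds, was highest in CD-PC. There it ranged from 245 to 631 CPM with a median of 509, against 127 to 191 CPM with a median of 165 in PT. No CD-PC value reached down to the PT range. CNT (293 ± 77.7 CPM), CD-IC (275 ± 45.3), DCT (237 ± 47.5) and LOH (217 ± 44.8) lay between CD-PC and PT (165 ± 20.5; SD, n = 9), each above all 12 PT markers in its ratio to PT in 9 of 9 mice. CD-PC was above CNT in 9 of 9 mice, but SD ranges of neighbours in this order overlapped. The thinned share of cells with a UMI was 36.0% ± 7.99 in CD-PC, 15.4% ± 1.70 in PT and 7.56% ± 1.04 in T cells, and the unthinned shares were 66.6%, 40.1% and 22.4%.

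Gsta2, an alpha class enzyme that also reduces organic hydroperoxides, was at 604 ± 172 CPM in PT (SD, n = 9; 351 to 849, median 563). In LOH it was at 0.64 and in T cells at 0.57 of its PT level, next to PT marker ratios of 0.62 and 0.56 in these classes. Its ratio was 0.26 against 0.32 in thin limb cells and 0.64 against 0.71 in podocytes, whereas in cycling cells, at 582 ± 202 CPM (SD, n = 9), it was 0.98 against 0.74 but above all 12 markers in 0 of 9 mice. The thinned share with a UMI was 39.0% ± 8.64 in PT and 17.7% ± 3.64 in T cells, and unthinned 63.6% and 35.1%. Ggt1 was at 652 ± 97.9 CPM in PT and 546 ± 56.6 in LOH (SD, n = 9). Its LOH to PT ratio of 0.84 was above all 12 markers in 8 of 9 mice, and its DCT ratio of 0.63 in 9 of 9. Gstt2 was at 335 ± 62.5 CPM in PT, the highest of its class means. Gstm5 was at 309 ± 41.4 CPM in PT and 389 ± 60.6 in the 653 cycling cells, a class whose PT marker ratio was 0.74, and its LOH to PT ratio of 0.74 was above all markers in 9 of 9 mice. Gsta3, at 128 ± 33.2 CPM in PT, was likewise highest in cycling cells at 150 ± 49.4 (SD, n = 9). Gstp1 means ranged from 77.4 CPM in macrophages and 78.7 in CD-PC to 167 ± 92.8 in thin limb cells, with 144 ± 55.3 in PT and 112 ± 38.9 in DCT (SD, n = 9). Its ratio to PT was above all 12 markers in 9 of 9 mice in CD-IC, DCT, LOH, endothelial and thin limb cells.

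Likeness over classes was measured as Pearson's r of mean log2(CPM + 1) over 14 classes against 12510 genes. It is given without a test, since all classes share PT transcripts and the libraries. Gsta2 was nearest to Cryl1 (r = 0.99) and the gluconeogenic enzyme Fbp1 (0.99), Gstm5 to Gclm (0.98), and Ggt1 to Mogat1 (0.97) and the organic anion transporter Slc22a8 (0.96). Nipsnap1 had a pattern like that of Gstt2 (0.95). Gstt1 was nearest to Nckap5 (0.95) and another theta class gene, Gstt3 (0.93), and Gstm1 to Proser2 (0.95) and Corin (0.94). Of these genes, Fbp1, Slc22a8, Proser2 and Corin were among the markers used to name classes or PT segments. Their likeness is therefore not independent of that naming. Gsta3 with Lyplal1 (0.90) and Smim22 (0.89), Gstp1 with Nsfl1c (0.92) and Snf8 (0.91), and Gsta4 with ENSMUSG00000121308 (0.90) and Syt17 (0.86) gave the lower values. Among the members themselves, Gstm5 and Gstt2 (r = 0.90), Gsta2 and Gstm5 (0.89), and Gsta4 and Gstt1 (0.76) had like patterns.

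Within PT, Gsta2 and Gsta4 were higher in the early (S1) segment and Ggt1, Gstm1 and Gstp1 in the later (S2/S3) cells. PT clusters named S1 held 47298 cells and those named S2/S3 held 37713. Other PT clusters, among them the largest ones of 24153 and 22900 cells, matched too few segment markers and were given no segment. One S1 cluster of 8712 cells matched 4 S1 and 4 S2/S3 markers, and held Gsta2 at 455 and Ggt1 at 591 CPM. It was named S1 because 4 matches are a larger share of the S1 list, which is the shorter list. In the segments as named, 7 of 7 S1 markers, among them the glucose transporter Slc5a2, were higher in S1 in 9 of 9 mice. Of the S2 and S3 markers, Slc22a8 (417 CPM in S1, 439 in S2/S3) and Cyp7b1 (1.01 and 1.27) were higher in S1 in 2 of 9 mice. The others were higher in S1 in 0 of 9. The segments were named from these same markers, so this is no separate test of the names. The cells named S3 alone numbered 170, with 3 in the lowest mouse, and were not tested.

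**Figure D2:**
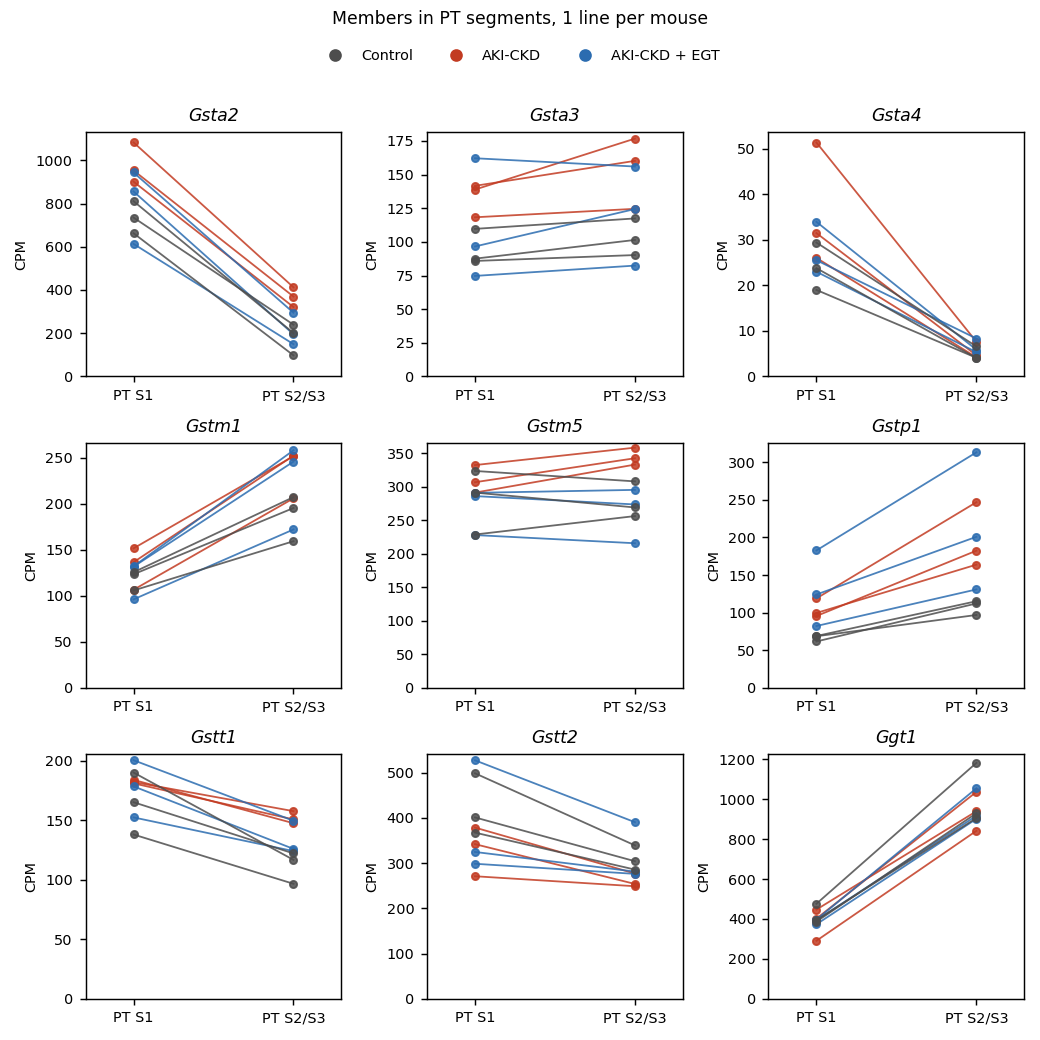
Level of each member (vertical axis, CPM, from 0) in PT S1 and PT S2/S3 cells (horizontal axis), with 1 line per mouse coloured by group. All 9 lines fall from S1 to S2/S3 for Gsta2, Gsta4, Gstt1 and Gstt2, and all 9 rise for Gstm1, Gstp1 and Ggt1.

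Gsta2 was at 840 ± 150 CPM in S1 (613 to 1083) and 254 ± 104 in S2/S3 (97.8 to 412; SD, n = 9). The ranges did not overlap, and the median S1 to S2/S3 ratio was 3.20. Gsta4 was at 29.3 ± 9.45 CPM in S1 (19.0 to 51.3) and 5.64 ± 1.59 in S2/S3 (4.05 to 8.33), with a median ratio of 5.79. Gstt1 (ratio 1.34) and Gstt2 (1.32) were also higher in S1 in 9 of 9 mice, although their ranges over mice overlapped. Ggt1 went the other way at 396 ± 50.9 CPM in S1 (291 to 476) and 968 ± 104 in S2/S3 (842 to 1182), a median S2/S3 to S1 ratio of 2.42. Gstm1 (ratio 1.79) and Gstp1 (1.67) were higher in S2/S3 in 9 of 9 mice as well. Gsta3 was higher in S1 in 1 of 9 mice and Gstm5 in 4 of 9, and the ranges of S1 and S2/S3 overlapped for both. Over all 12 PT clusters, pooled levels ranged from 192 to 1122 CPM for Gsta2, from 300.2 to 1093 for Ggt1 and from 120.2 to 857 for Gstm1. The cluster with the highest Gsta2 was the one of 22900 cells without a segment, above the S1 clusters at 455 to 1031 CPM. Cells named S3 held Gstm1 at 739 ± 268 CPM (SD, n = 9) and a range of 165 to 991 CPM. They formed 1 cluster, the highest of the 12 for Gstm1, which was split from the same cluster as the thin limb cells and also matched 6 of 10 injured tubule markers, the class it fitted best apart from its S3 genes.

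The comparison of AKI-CKD with Control asks how the cisplatin model altered PT cells. By edgeR's quasi-likelihood test 0 of the 9 members were called in PT at an adjusted p under 0.05, where 0.0446% of 17957 genes were. DESeq2 also called 0, while it called 1.17% of all genes. At an unadjusted p under 0.05, edgeR had 3 members (Gsta2, Gsta4 and Gstp1) and DESeq2 4, where edgeR had 11.4% and DESeq2 7.59% of all genes. The point estimates were above 0 for 7 of 9 members, with a median log2 fold change of 0.36 against -0.01 over all genes tested. The mice of the groups did not overlap for 5 members, Gsta2, Gsta3, Gstp1 and Gstt1 being higher and Gstt2 lower in AKI-CKD, against 21.1% of all genes. Values from here on are CPM with TMM-scaled library sizes, and whether fewer cells of a kind or less RNA per cell lie behind a sum over PT cells cannot be told apart.

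**Figure D3:**
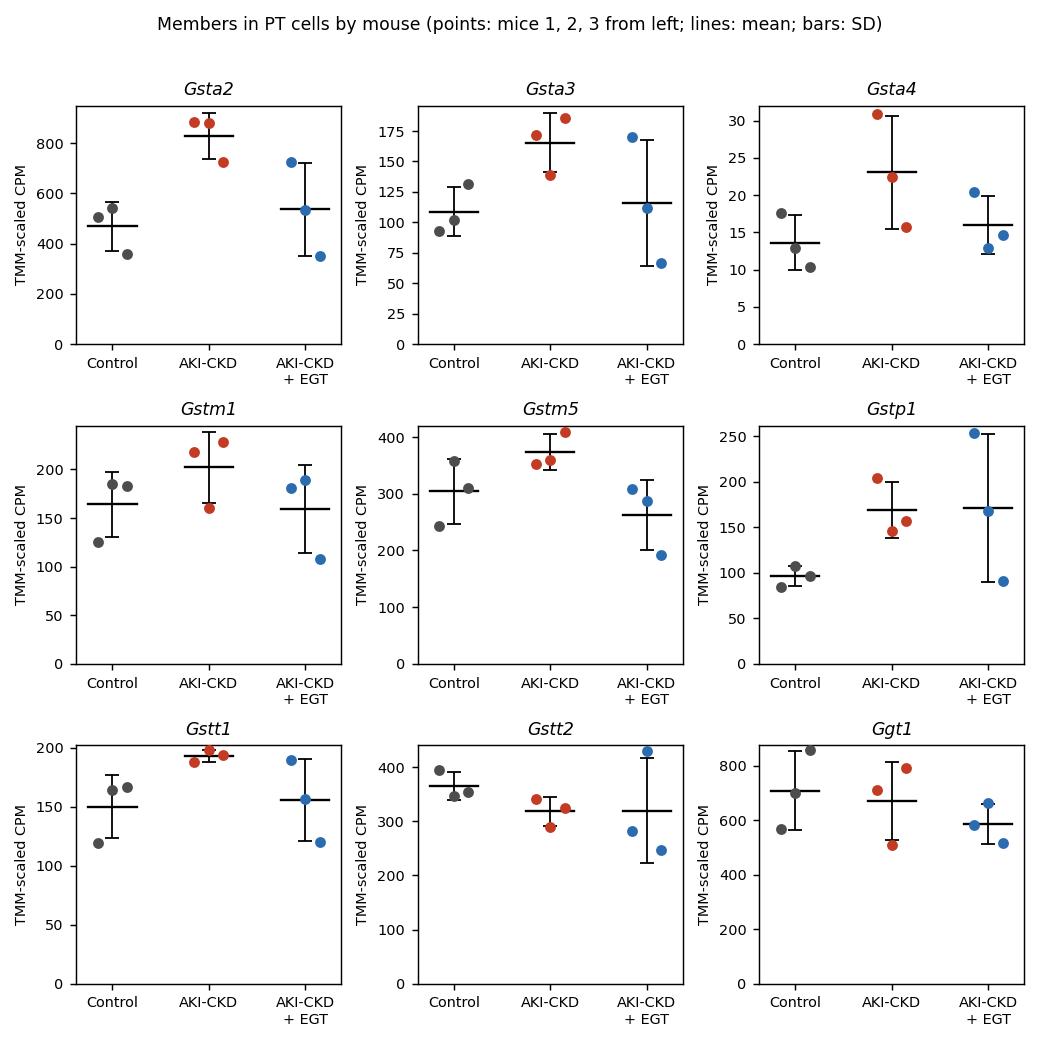
Level of each member in PT cells (vertical axis, TMM-scaled CPM, from 0) in Control, AKI-CKD and AKI-CKD + EGT mice (horizontal axis), with 1 point per mouse, a line at the mean and a bar for the SD. For Gsta2 the AKI-CKD mice sit between 725 and 885, above all Control mice (359 to 544).

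Gsta2 was at 505, 544 and 359 CPM in Control mice 1, 2 and 3, at 885, 880 and 725 in AKI-CKD mice 1, 2 and 3, and at 724, 535 and 351 in AKI-CKD + EGT mice 1, 2 and 3. All AKI-CKD mice were above all Control mice, while the AKI-CKD + EGT mice ran from below the Control range to just below the lowest AKI-CKD value. Its log2 fold change in AKI-CKD relative to Control was 0.82 ± 0.25 (SE), with an adjusted p of 0.335 in edgeR (Benjamini-Hochberg) and of 0.0628 in DESeq2. Without Control mouse 1 it was 0.88 (edgeR adjusted p 0.409). Gstp1, the pi class enzyme that also binds the stress kinase JNK, was at 84.8, 107 and 96.6 CPM in Control, 204, 146 and 157 in AKI-CKD, and 253, 168 and 91.3 in AKI-CKD + EGT mice. The AKI-CKD mice were above the Control mice, and AKI-CKD + EGT mouse 1 was the highest of the 9 whereas mouse 3 lay within the Control range. Its log2 fold change was 0.81 ± 0.30 (SE; edgeR adjusted p 0.381).

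Gsta4 gave PT levels of 17.6, 12.9 and 10.4 CPM in Control and 30.9, 22.4 and 15.8 in AKI-CKD mice. These overlapped through AKI-CKD mouse 3 and Control mouse 1, and the log2 fold change was 0.76 ± 0.27 (SE; edgeR adjusted p 0.366). Gsta3, an alpha class enzyme that clears epoxides such as that of aflatoxin, was at 92.5, 102 and 132 CPM in Control and 172, 139 and 186 in AKI-CKD mice, with a log2 fold change of 0.61 ± 0.28 (SE; edgeR adjusted p 0.445). Gstt1 was at 119, 164 and 167 CPM in Control and 188, 198 and 194 in AKI-CKD mice. For both genes the mice of the groups did not overlap, although the adjusted p missed the threshold. Gstt2, the other theta class gene, went the other way without overlap, at 395, 347 and 354 CPM in Control and 341, 289 and 325 in AKI-CKD mice, while its AKI-CKD + EGT mice (282, 430 and 246) spanned both groups. With plain totals in place of TMM the Gstt2 groups overlapped, at 325 CPM in Control mouse 2 and 327 in AKI-CKD mouse 1. Gstm1 was at 125, 185 and 182 CPM in Control, 218, 161 and 228 in AKI-CKD and 181, 189 and 107 in AKI-CKD + EGT mice, and its groups overlapped. The 95% intervals of Gstm1 (0.30), Gstm5 (0.30), Gstt2 (-0.20) and Ggt1 (-0.08), as log2 fold changes, all held 0. For Ggt1 the 95% interval of the fold reached from 0.69 to 1.3, and the Control mice (569, 700 and 857 CPM) overlapped the AKI-CKD mice (709, 510 and 791).

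Other measures of PT cells by group were as follows, with summed levels in plain CPM, not scaled by TMM. Ribosomal protein genes took 8.12% to 8.89% of PT UMIs in AKI-CKD against 6.50% to 7.15% in Control and 6.57% to 7.55% in AKI-CKD + EGT mice. The summed level of the 12 PT markers was 80022 to 121798 CPM in AKI-CKD, 99744 to 112493 in AKI-CKD + EGT and 120417 to 148468 in Control mice. The 10 macrophage markers summed to 17.1 to 40.4 CPM in AKI-CKD and 30.9 to 44.5 in Control PT cells, which overlapped. The 10 injured tubule markers summed to 432 to 650 CPM in AKI-CKD, 471 to 715 in AKI-CKD + EGT and 275 to 517 in Control mice. AKI-CKD + EGT and AKI-CKD mice did not overlap in the sums of 9 LOH markers (437 to 687 against 314 to 388 CPM), 7 DCT markers (123 to 279 against 62.8 to 84.2) and 4 haemoglobin genes (4.21 to 31.1 against 0.0629 to 0.953). Nor did they in the mitochondrial share of PT UMIs (3.41% to 5.43% against 1.92% to 3.03%). The share of PT cells in S1 clusters, where Gsta2 and Gsta4 were high, was 28.1% to 33.5% in AKI-CKD, 30.5% to 36.5% in AKI-CKD + EGT and 26.7% to 33.1% in Control mice, with overlap. The S1 share leaves out the PT cluster without a segment in which Gsta2 was highest. The part of these measures in the member values was not tested. With library sizes free of mitochondrial, ribosomal and Malat1 counts, 0 members were called.

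The comparison of AKI-CKD + EGT with AKI-CKD asks what ergothioneine added to cisplatin did. In PT, edgeR called 0 of 9 members and 0% of 17957 genes, and DESeq2 called 0 members and 2.22% of genes. At an unadjusted p under 0.05, edgeR had 2 (Gsta2 and Gstm5) and DESeq2 3, where edgeR had 15.3% and DESeq2 10.4% of all genes. Estimates were below 0 for 7 of 9 members, with a median log2 fold change of -0.34 against -0.01 over all genes tested. With plain totals in place of TMM 6 of 9 were below 0, and the medians were -0.14 over the members and 0.22 over all genes. Of the members only Ggt1 turned, to 0.0368. The share of all genes below 0 was 51.2% with TMM and 21.8% with plain totals, so the signs over all genes depended on the scaling. The AKI-CKD mice are shared with the comparison above, so the opposite signs of the comparisons are not independent of each other.

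**Figure D4:**
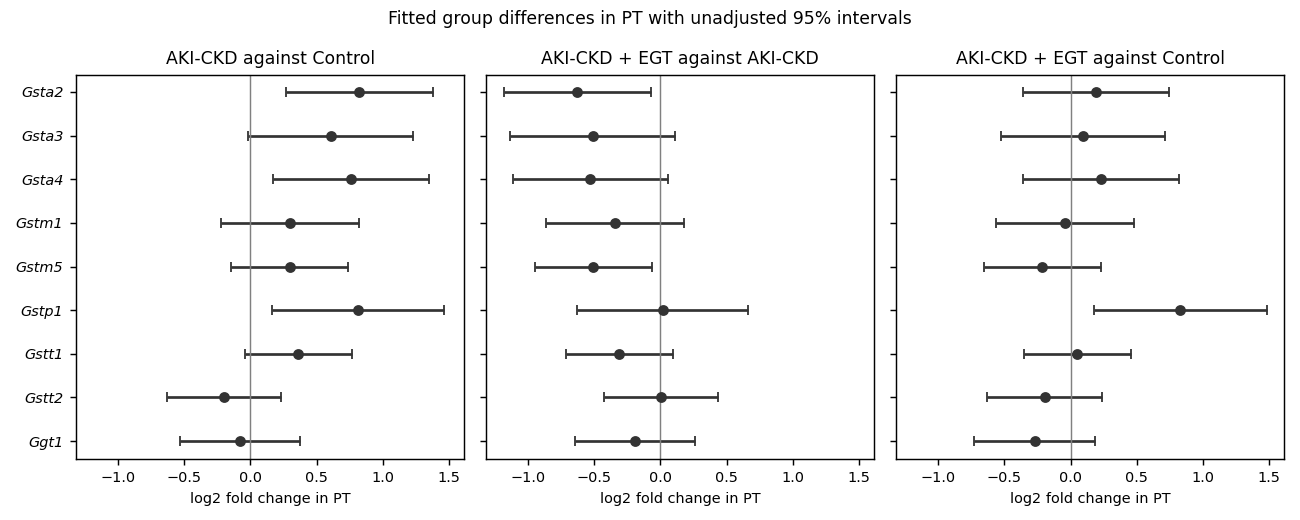
Fitted log2 fold change of each member in PT (horizontal axis) for the 3 comparisons, with unadjusted 95% intervals as bars and the members on the vertical axis. Gsta2 lies at 0.82 in AKI-CKD relative to Control, at -0.63 in AKI-CKD + EGT relative to AKI-CKD and at 0.19 in AKI-CKD + EGT relative to Control.

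For Gsta2, whose values are given above, the log2 fold change in AKI-CKD + EGT relative to AKI-CKD was -0.63 ± 0.25 (SE; edgeR adjusted p 0.286). All AKI-CKD + EGT mice were below all AKI-CKD mice, with mouse 1 nearest at 724 against 725 CPM. With plain totals in place of TMM the log2 fold change was -0.43 and the groups overlapped, at 729 CPM in AKI-CKD + EGT mouse 1 and 643 in AKI-CKD mouse 3. Gstm5 was at 309, 287 and 192 CPM in AKI-CKD + EGT, 352, 360 and 409 in AKI-CKD and 243, 358 and 311 in Control mice. Its groups did not overlap either, with a log2 fold change of -0.51 ± 0.20 (SE; edgeR adjusted p 0.281), and these 2 members compare with 21.1% of all genes. Gsta3 (-0.51), Gsta4 (-0.53), Gstm1 (-0.34) and Gstt1 (-0.31) had estimates below 0 with overlapping mice, and Gstp1 (0.02) and Gstt2 (0.00) were near 0. AKI-CKD + EGT mouse 3 had the lowest value of the 9 mice for Gsta3, Gstm1 and Gstm5, and with TMM but not with plain totals for Gsta2 and Gstt2. Without it the Gsta2 log2 fold change was -0.39 (edgeR adjusted p 0.679), and without mouse 1 it was -0.91 (0.0882).

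Between AKI-CKD + EGT and Control, 0 members were called in PT by edgeR or DESeq2, where edgeR called 0% of genes and DESeq2 0.647%. At an unadjusted p under 0.05 there was 1 member, Gstp1, by either tool, where edgeR had 7.14% and DESeq2 4.74% of all genes. Its log2 fold change was 0.83 ± 0.30 (SE; edgeR adjusted p 0.578), falling to 0.43 without AKI-CKD + EGT mouse 1 and reaching 1.13 without mouse 3. The other 8 estimates lay between -0.27 (Ggt1) and 0.23 (Gsta4), and for 0 members did the mice of the groups fail to overlap, against 10.5% of all genes.

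Across the 13 classes tested and the PT segments, 393 tests of members were made with edgeR and 0 passed an adjusted p of 0.05, against 0.0738% of the tests of all genes, while 65 had an unadjusted p under 0.05. These 65 were 16.5% of the member tests, against 9.84% of the tests of all genes, a share that ran from 2.76% to 20.9% by class and comparison. The smallest adjusted p was 0.118, for Gsta4 in CD-IC cells in AKI-CKD + EGT relative to AKI-CKD. In this class and comparison edgeR called 232 of 7880 genes (2.94%), far above the share over all tests. The Gsta4 level there was 91.4, 85.8 and 64.2 CPM in AKI-CKD mice, 64.6, 35.3 and 52.1 in AKI-CKD + EGT mice and 61.1, 50.6 and 35.5 in Control mice. AKI-CKD + EGT mouse 1 reached AKI-CKD mouse 3, and the log2 fold change was -0.73 ± 0.25 (SE). Gsta4 passed the filter on low counts in 9 of the 13 classes, and the other members in all of them.

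Gstp1 had estimates above 0 in 13 of 13 classes with either cisplatin group set against Control, at 0.28 to 0.88 in AKI-CKD (median 0.56) and 0.28 to 1.37 in AKI-CKD + EGT mice (median 0.82). All classes share the Control mice and free PT transcripts, so they are not independent. In the first of these comparisons 6 classes had an unadjusted p under 0.05 and in the second 10, with smallest edgeR adjusted p-values of 0.221 and 0.443. Over the same classes 3.56% to 14.9% and 3.79% to 8.05% of all genes had such an unadjusted p. In CD-PC cells, Gstp1 was at 55.4, 52.7 and 33.6 CPM in Control, 103, 67.3 and 72.2 in AKI-CKD and 139, 93.9 and 94.7 in AKI-CKD + EGT mice. Both cisplatin groups lay above all Control mice there. In thin limb cells it was at 104, 78.5 and 127 CPM in Control, 161, 102 and 115 in AKI-CKD and 370, 234 and 213 in AKI-CKD + EGT mice, where only the AKI-CKD + EGT mice were apart from the rest. Thin limb cells numbered 22 in the lowest mouse. The share of all genes without overlap was not computed in CD-PC or thin limb cells. Gsta2 had estimates above 0 in 13 of 13 classes in AKI-CKD relative to Control (0.01 to 1.41) and below 0 in 12 of 13 in AKI-CKD + EGT relative to AKI-CKD. Outside PT its ratio to PT was above all 12 PT markers in at most 3 of 9 mice in the tested classes (LOH and CD-PC). For neither gene was the share of all genes with the same sign in as many classes computed.

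**Figure D5:**
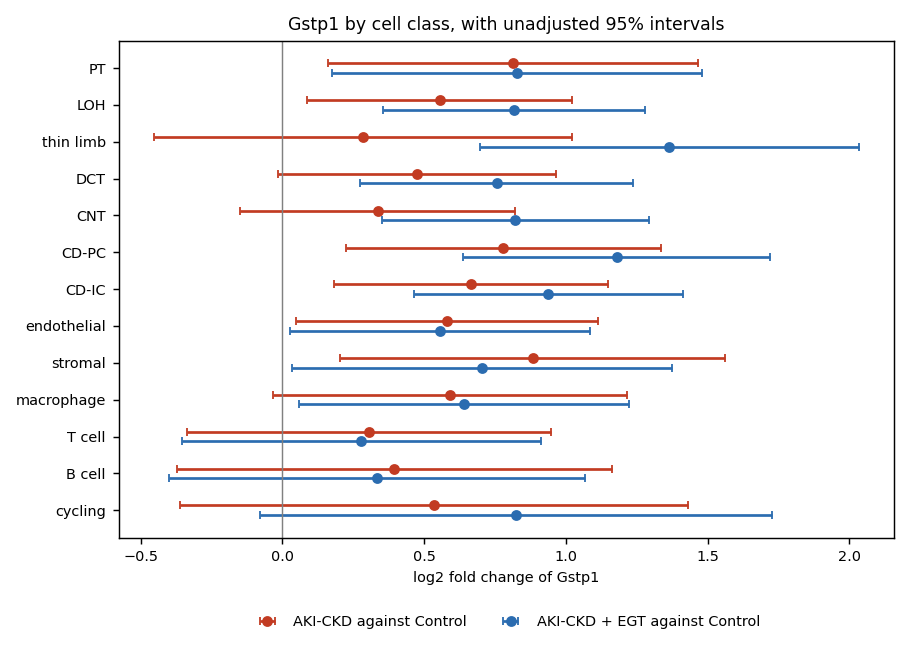
Fitted log2 fold change of Gstp1 (horizontal axis) in each tested cell class (vertical axis) for AKI-CKD and AKI-CKD + EGT relative to Control, with unadjusted 95% intervals as bars. All estimates lie above 0, the highest at 1.37 in thin limb cells of AKI-CKD + EGT mice.

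In the PT segments, edgeR called 0 members in S1 (where 0.0188% of genes were called in AKI-CKD relative to Control) or in S2/S3 (0.079%), and 0 in the other comparisons (0% to 0.00627% of genes). In S1 cells Gsta2 was at 694, 832 and 648 CPM in Control, 1112, 1065 and 983 in AKI-CKD and 956, 810 and 539 in AKI-CKD + EGT mice. S2/S3 cells held it at 240, 218 and 96.4 CPM in Control, 428, 386 and 346 in AKI-CKD and 290, 188 and 127 in AKI-CKD + EGT mice. The AKI-CKD mice were above all others in both segments, where 13% of genes in S1 and 9.8% in S2/S3 had all AKI-CKD mice above all Control mice. The log2 fold change in AKI-CKD relative to Control was 0.54 ± 0.20 in S1 and 1.07 ± 0.33 in S2/S3 (SE), and the difference between the segments, tested in a model with the mouse as a block, was 0.65 ± 0.20 (SE; edgeR adjusted p 0.738). Of all genes, 0.0309%, 0.00618% and 0% passed this test in the 3 comparisons, and 0 members did. With no filter on low counts Gsta2 passed in edgeR, at 0.63 ± 0.093 (SE; adjusted p 4.34e-08) in AKI-CKD relative to Control and -0.56 ± 0.093 (SE; 2.76e-06) in AKI-CKD + EGT relative to AKI-CKD, where 0.504% and 0.334% of all genes passed. In AKI-CKD relative to Control the estimate stayed near 0.65, and it was the SE that fell from 0.20. Gsta4 had the lower estimate in S2/S3, by -0.45 ± 0.18 (SE; edgeR adjusted p 0.978), at levels of 4.05 to 7.90 CPM in these mice.

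The same test asked whether group differences in PT were shared by LOH and DCT cells. By edgeR 0 members were called in either, and DESeq2 was not run on this test. Of all genes, 0.157% were called in LOH for AKI-CKD relative to Control, 1.52% for AKI-CKD + EGT relative to AKI-CKD and 0.00581% for AKI-CKD + EGT relative to Control. In DCT the shares were 0.00573%, 0% and 0%. In LOH the Gsta2 estimate differed from that in PT by -0.38 ± 0.15 in AKI-CKD relative to Control and by 0.48 ± 0.15 in AKI-CKD + EGT relative to AKI-CKD (SE; edgeR adjusted p 0.445 and 0.128). Gsta3 (-0.47 and 0.43), Gstm1 (-0.30 and 0.29) and Gstm5 (-0.31 and 0.37) had the same pair of signs, each with an unadjusted p under 0.05, as had 9.08% and 11.8% of all genes. In its ratio to PT, Gsta2 was above all 12 PT markers in 3 of 9 mice in LOH and 1 of 9 in DCT, and Gsta3 in 6 of 9 and 0 of 9, so by the rule above neither is described as present there. The part of free PT transcripts in these differences was not tested. Without AKI-CKD + EGT mouse 1 the second of these passed the edgeR threshold for Gsta2 (0.70, adjusted p 1.6e-05), Gsta3 (0.55, 0.0127) and Gstm5 (0.46, 0.0178), where 4.68% of all genes did. So did Gsta2 without Control mouse 1 (0.51, 0.0135) or Control mouse 3 (0.51, 0.0257), beside 2.98% and 2.74% of all genes. In AKI-CKD relative to Control Gsta3 passed without Control mouse 3 (-0.61, edgeR adjusted p 0.03), as did 1.28% of all genes. In DCT, Gsta2 (0.74, 0.0311) and Gsta3 (0.72, 0.024) passed without AKI-CKD + EGT mouse 1 in AKI-CKD + EGT relative to AKI-CKD, where 3.41% of all genes did. With no filter on low counts, Gsta2 passed in that comparison in LOH (0.48, edgeR adjusted p 0.00329) and DCT (0.50, 0.0484), and Gsta4 in DCT in AKI-CKD relative to Control (-0.62, 0.0445). The shares of all genes that passed without the filter were 1.82%, 1.35% and 0.775% in these tests.

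Over the 9 mice, PT levels of the members were compared in 36 pairs. Pearson's r passed an adjusted permutation p of 0.05 for 5 pairs and Spearman's rho for 0, with a smallest adjusted p of 0.142. Mice were permuted without regard to group, and the share of all gene pairs that would pass was not computed. Gsta3 and Gstt1 gave r = 0.90 (exact permutation p 0.000783, adjusted 0.0227). Their rho was 0.85 (exact permutation p 0.00607, adjusted 0.142). After the 2 mice farthest from the median Gsta3 level were left out, r was 0.82. Gstm5 and Gstt1 gave r = 0.89 (exact permutation p 0.00205, adjusted 0.0227), or 0.84 without the farthest 2 mice. Here rho was 0.82 (exact permutation p 0.0108, adjusted 0.142). The pairs Gsta3 and Gstm1 (0.86), Gstm1 and Gstm5 (0.89) and Gsta3 and Gstm5 (0.83) fell to r = 0.52, 0.43 and 0.41 without the farthest 2 mice and rested on them. With group means removed and all 9 mice kept, r was 0.83 for Gsta3 and Gstt1 and 0.91 for Gstm5 and Gstt1. It was 0.82 for Gsta3 and Gstm1, 0.89 for Gstm1 and Gstm5 and 0.78 for Gsta3 and Gstm5.

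The wider glutathione pathway in PT was described with 7 further lists, in which edgeR called 0 genes in each comparison. Of 13 other cytosolic and kappa GSTs tested, 11 had estimates above 0 in AKI-CKD relative to Control (9 with plain totals), with a median log2 fold change of 0.35, and 2 had an unadjusted p under 0.05. Gstp2, the pi class neighbour of Gstp1, was at 0.97 ± 0.22 with AKI-CKD and 1.11 ± 0.22 with AKI-CKD + EGT mice relative to Control (SE; edgeR adjusted p 0.217 and 0.376). DESeq2 called Gstp2 in both, where it called 1.17% and 0.647% of all genes. Its level was low, at 1.65, 2.19 and 1.97 CPM in Control, 3.99, 3.93 and 3.50 in AKI-CKD and 5.12, 4.48 and 2.96 in AKI-CKD + EGT mice. Its Control mice did not overlap either group. Reads shared with Gstp1 could have entered the Gstp2 counts, and their part in this result was not tested. Gsta1, next to Gsta4, was at 1.04 ± 0.48 in AKI-CKD relative to Control (SE; edgeR adjusted p 0.44), at 0.23, 0.33 and 0.312 CPM in Control and 1.04, 0.505 and 0.255 in AKI-CKD mice, which overlapped. The microsomal transferases Mgst1 (0.54) and Mgst3 (0.51), membrane enzymes that also reduce lipid hydroperoxides, had estimates above 0 with an unadjusted p over 0.05.

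Among the other GGT family members in AKI-CKD relative to Control, Ggt5, which cleaves leukotriene C4, was at -1.50 ± 0.52 and Ggt6 at 0.43 ± 0.15 on the log2 scale (SE; edgeR adjusted p 0.366 and 0.375), both with an unadjusted p under 0.05. For glutathione synthesis, 1 of 7 genes had an unadjusted p under 0.05, namely Gclc, the catalytic subunit of glutamate-cysteine ligase, at -0.60 ± 0.26 (SE; edgeR adjusted p 0.435). Its groups overlapped, at 131, 70.8 and 56.3 CPM in Control and 58.0, 48.5 and 63.9 in AKI-CKD mice, with Control mouse 1 the highest. The cystine transporter subunit Slc3a2 was at 0.47. In the breakdown and mercapturate list, 6 of 12 estimates lay on each side of 0 (4 above and 8 below with plain totals). Chac1, which degrades glutathione in the cytosol, was at -1.53 ± 0.68 and the brush border dipeptidase Dpep1 at 0.45 ± 0.23 (SE). The Chac1 level was 1.92, 0.461 and 0.38 CPM in Control and 0.315, 0.505 and 0.148 in AKI-CKD mice, again with overlap and with Control mouse 1 the highest. In AKI-CKD + EGT relative to AKI-CKD 12 of 12 estimates of this list were below 0 with TMM but 5 of 12 with plain totals, next to 51.2% and 21.8% of all genes, and 1 had an unadjusted p under 0.05. Of the 9 genes of glutathione reduction and the peroxidases, 3 had an unadjusted p under 0.05 in AKI-CKD relative to Control and 5 in AKI-CKD + EGT relative to AKI-CKD. Gpx6 was at -1.27 and 1.69 and Gpx7 at 1.12 and -0.96 in these comparisons. Of the 5 exporters and carriers tested, the conjugate pump Abcc1 was at -1.56 and 2.11 and Abcc4 at 0.36 and -0.28. Counts were low for several of these genes, with 5 to 52 UMIs per mouse for Ggt5, 11 to 60 for Abcc1, 17 to 76 for Gpx7 and 40 to 223 for Gpx6. DESeq2 called Gstm2, Gpx3, Gpx6, Gpx8 and Abcc1 in AKI-CKD + EGT relative to AKI-CKD, none of which edgeR called. In that comparison DESeq2 called 2.22% of all genes. At an unadjusted p under 0.05, edgeR had 11.4% of all PT genes for AKI-CKD relative to Control and 15.3% for AKI-CKD + EGT relative to AKI-CKD.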

How the data were processed

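For each of the 9 mice the authors deposited raw UMI counts as a sparse matrix of genes by barcodes, written per the file headers with PISA 1.0, and the submitters' processing notes name build GRCm39. The aligner and counting rules are not given in the sources used here. Groups came from the sample labels. Cells were kept with at least 1000 UMIs, 500 genes and at most 15% mitochondrial UMIs. After 2000 variable genes (members and listed genes left out), 30 components, Harmony and Leiden clustering (20 neighbours, resolution 1.1; scanpy 1.11.5), clusters were named from marker genes, so classes are rebuilt and may differ from the study's. The cluster with the highest mean share of Slc14a2, itself a thin limb marker, was clustered again (15 neighbours, resolution 0.5). This step was chosen after the genes of that cluster were seen, and it gave the thin limb and S3 cells. Of 38 clusters 30 were named, and a haemoglobin-led cluster of 5133 cells stayed unnamed. Scrublet's own calls were uneven, at 22.8% of cells in AKI-CKD + EGT mouse 1 and at most 0.0116% in any other mouse. They were not used, so doublets were kept, and removing the top 6% by score in each library was an alternative. UMI counts were summed per mouse and class with at least 20 cells in each mouse, genes passed edgeR's filter, and TMM and the quasi-likelihood F test (edgeR 4.0.16, R 4.3.3) were applied to all 9 mice, with Benjamini-Hochberg adjustment over all genes of a class and comparison. DESeq2 1.42.0 was run in PT as an alternative. An exact permutation test of 3 against 3 mice cannot go below p = 0.1. Where nothing else is said, errors are SDs over mice, and they cover the differences between these mice only. The members and lists were chosen with earlier results of these data known. Named genes were all members, the 2 genes of each other list with the largest fold in AKI-CKD against Control in PT, genes called there, and the 2 genes nearest to each member over classes, of which 2 are not reported here; DESeq2 calls were added after their values were seen. Of the listed genes, Gsta13 was in no matrix. Only the edgeR test of PT sums for AKI-CKD against Control was tried on simulated data. The models with the mouse as a block, DESeq2 and the other classes were not. Coordinates and sequences are RefSeq, GRCm38.p6.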

Additional observations from a re-analysis of the deposited data

How the results depend on the processing

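For the log2 fold changes of the 9 members in PT, 567 values were computed under 21 alternatives: 542 kept their direction and 25 turned it, and 0 members were called under any. In AKI-CKD + EGT relative to AKI-CKD, Gstt2 was at -0.0085 with DESeq2, -0.0308 with no filter on low counts, -0.0182 with the replicate block, -0.0029 without Harmony and -0.0056 without the stress-led clusters; Gstp1 was at -0.0133 with no filter, -0.0484 with the replicate block and -0.0321 without Harmony. With plain totals in place of TMM, Ggt1 in this comparison was at 0.0368 and Gstm1 in AKI-CKD + EGT relative to Control at 0.0810. Leaving out each mouse in turn gave -0.216 to 0.0874 for Ggt1 in AKI-CKD relative to Control. In AKI-CKD + EGT relative to AKI-CKD it gave -0.388 to 0.326 for Gstp1 and -0.275 to 0.173 for Gstt2. In AKI-CKD + EGT relative to Control it gave -0.0825 to 0.418 for Gsta2, -0.285 to 0.369 for Gsta3, -0.207 to 0.174 for Gstm1 and -0.112 to 0.205 for Gstt1. Calls of a member whose group difference differed between classes, summed over the 3 comparisons, numbered 0 in LOH, DCT or S2/S3; with no filter on low counts they numbered 1 (Gsta2), 2 (Gsta2 and Gsta4) and 2 (Gsta2 with AKI-CKD relative to Control and AKI-CKD + EGT relative to AKI-CKD), and with each mouse left out 0 to 3, 0 to 2 and 0 to 0. The cause was not tested. With log-normalized means, 1 class rather than 0 exceeded PT for Gsta2. Genes called in PT in AKI-CKD relative to Control numbered 8, and 0 to 203 under the alternatives (203 with DESeq2, 0 with the replicate block); in AKI-CKD + EGT relative to AKI-CKD 0 became 410 with DESeq2, and against Control 93. The replicate numbers did not pair the mice, since same-numbered mice correlated at -0.43 to 0.33, and with the block 0 members were called. PT sums rested on 8715 cells or more per mouse and those of thin limb on 412 cells in all. Alternatives with the haemoglobin-led cluster, without the stress-led clusters and with S2/S3 in place of S3 were added after the data were seen.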
